A study of Mus musculus with 18 samples.

Results

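The livers compared here are 3 labelled HPNWT and 3 labelled EGFP, all labelled day 4 and given an adeno-associated virus (AAV), a gene delivery vector. They are 6 of the 18 livers of the series, which also holds 3 HPNWT and 3 EGFP livers at day 1 and at day 2. All mice were healthy adult males per the labels, and each liver was measured on 1 microarray of the Affymetrix mouse transcriptome design. The design text of the series concerns hepsin made in excess in liver. The labels do not spell out HPNWT, and they give no strain, age, vector dose, promoter or event from which the days were counted. EGFP, the green fluorescent protein, is the vector control, so that the controls also carried AAV. All transcript clusters with a gene symbol were described, 40161 of 65956 on the array. A transcript cluster is the array's unit for 1 gene or locus.

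Hepsin is a serine protease anchored in the membrane of hepatocytes, and the series title sets it beside the epidermal growth factor (EGF) receptor and liver regeneration. Adult hepatocytes seldom divide. When liver is lost or growth factors act on it, they pass from G1 into DNA synthesis and then through mitosis, and the genes of these steps are transcribed in waves. Type I interferon, the cytokine of antiviral defence, acts through STAT and IRF factors on a set of genes that many cell types share.

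The 6 arrays were alike, with correlations from 0.985 to 0.998, and no 2 held identical values. HPNWT replicate 3 stood apart from the other 5 arrays. On the first principal component, with 46.3% of the variance, its score was 53.8, and the others lay between −20.7 and −4.7. The second component (28.3%) held HPNWT replicates 1 and 2 at 22.9 and 29.6 and the 3 EGFP arrays at −19.4 to −10.7, with HPNWT replicate 3 at −5.04. The median over clusters with a symbol was 4.0 in HPNWT replicate 3 and 4.12 to 4.2 in the other arrays. Results are therefore given with and without HPNWT replicate 3. A background level of 6.16 log2 was set as the 95th percentile of the 5222 negative-control probe sets, averaged over the arrays. Where a group mean lies under it, the value is a difference of signal on the log2 scale and no fold is given.

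The hepatocyte markers were bright in every liver. Summed on the linear scale, the 8 hepatocyte markers came to 30740 to 33370 in HPNWT livers and 31080 to 33480 in EGFP livers, and none of the 8 passed the test. Sinusoidal endothelial markers (8 genes) summed to 1323 to 2029 in HPNWT livers and 1326 to 1386 in EGFP livers, and stellate cell markers (8 genes, of which Col1a2 and Des lay under the background level) to 977.2 to 1433 and 910 to 1085. Kupffer cell markers (10 genes, with Timd4 and Adgre1 under it) gave 1304 to 1909 in HPNWT livers and 1326 to 1731 in EGFP livers. The highest value of each of these 3 lists was that of HPNWT replicate 3. The 6 cholangiocyte markers summed to 471 to 649.6 in HPNWT livers and 307.6 to 387.5 in EGFP livers, with Krt19, Krt7, Epcam and Cftr under the background level. The 3 erythroid markers summed to 278.5 to 286.6 in HPNWT livers and 383.1 to 460.3 in EGFP livers, so these last 2 sums did not overlap between the groups. All markers of T, B and NK cells (10), neutrophils (6), monocytes (4) and pancreatic acinar cells (6) lay under it, and the monocyte sum was 51.6 to 68.75 in HPNWT livers and 38.42 to 46.4 in EGFP livers. Across these lists 3 markers passed the test, Reln of stellate cells (0.74), Ly6c2 of monocytes (0.71) and Alas2 of erythroid cells (−0.60), named after their values were seen.

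Hpn, the mouse gene for hepsin, was read first. Its log2 signal was 8.17, 8.11 and 8.62 in HPNWT livers and 8.30, 8.18 and 8.09 in EGFP livers. The groups overlapped, and 1 HPNWT array lay above all others. The difference was 0.11 (SE 0.12, limma adjusted p = 0.809), and −0.06 without HPNWT replicate 3. A transgene transcript that these mouse probes do not match would not be seen, and its sequence is not given in the sources used here. HPNWT livers and EGFP livers are therefore the livers so labelled, and every direction below is drawn from the labels alone.

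The question of the day 4 comparison was which genes differ between livers given the HPNWT vector and livers given the EGFP vector at the last time point. The clearest rises were a steroid-inactivating enzyme, female-biased cytochromes, cell cycle genes and interferon-inducible genes, and the clearest falls were serum amyloid genes, 3 fatty acid enzymes of male mouse liver and enzymes of amino acid use. Of 40161 clusters 620 were higher and 269 lower in HPNWT livers at an adjusted p under 0.05, which is 2.21% of the clusters tested (1.54% higher and 0.67% lower). Of these, 101 rises and 45 falls reached 1 log2 unit, and 4904 clusters had an unadjusted p under 0.05. The lowest HPNWT array lay above the highest EGFP array in 9.91% of all clusters, and the highest HPNWT array under the lowest EGFP array in 5.7%. Such a gap was seen for 620 of the called rises and 267 of the called falls. An exact permutation test of 3 against 3 arrays cannot go below p = 0.1, so single genes were tested in limma alone. All 18 arrays shared 1 estimate of the spread, and a fit on the 6 arrays of day 4 called 149 clusters. The labels give each array as a liver of its own. In these bulk samples fewer cells of a type and less RNA per cell cannot be told apart.

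**Figure D1:**
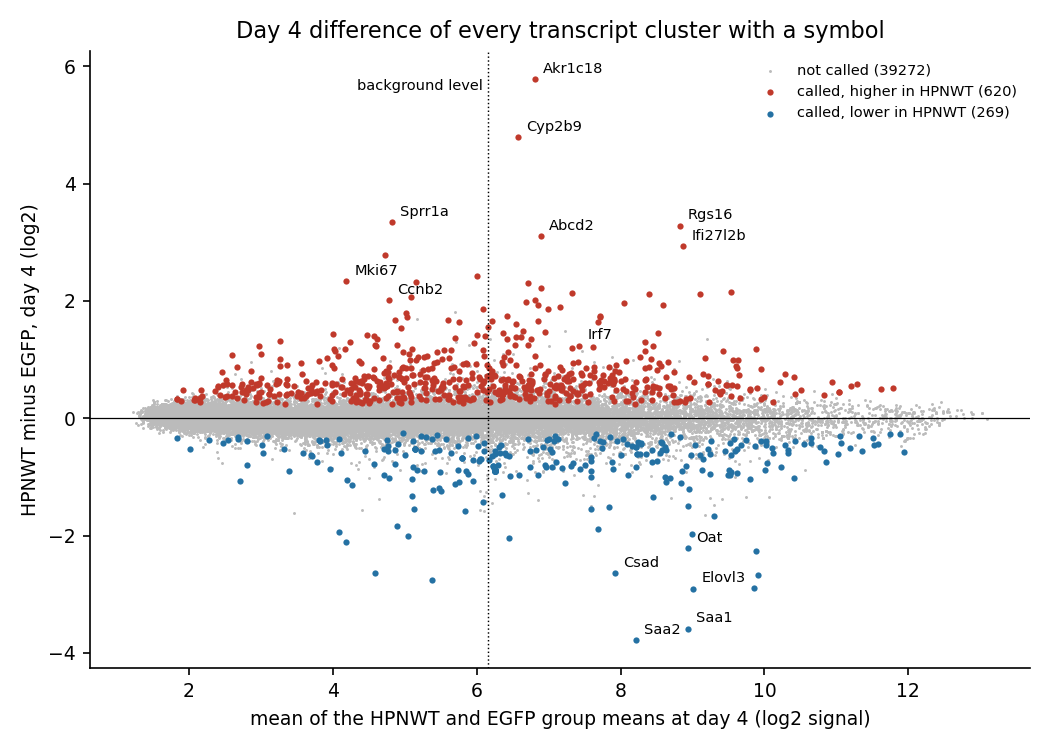
Each point is 1 transcript cluster with a symbol. The horizontal axis is the mean of the HPNWT and EGFP group means at day 4 (log2 signal) and the vertical axis is HPNWT minus EGFP (log2). Red points are the 620 called rises, blue points the 269 called falls and grey points the clusters not called. The dotted line is the background level of 6.16, and the labelled rises Akr1c18 and Cyp2b9 lie above all other points.

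The largest rises among the named genes began with a pair of genes that are normally low in male liver. Akr1c18 encodes 20-alpha-hydroxysteroid dehydrogenase, an enzyme that breaks down progesterone, and its log2 signal was 9.65, 9.83 and 9.63 in HPNWT livers and 3.81, 4.15 and 3.79 in EGFP livers. The difference was 5.79 (SE 0.24, limma adjusted p = 2.0e-09), with every EGFP array under the background level and every HPNWT array above it. Cyp2b9, a cytochrome P450 found mainly in female mouse liver, stood at 8.90, 9.53 and 8.47 in HPNWT livers and 4.35, 4.47 and 3.69 in EGFP livers. It rose by 4.80 (SE 0.36), and its EGFP arrays too were under the background level. Abcd2, the peroxisomal importer of very-long-chain acyl-CoA, rose by 3.11 (SE 0.35), with 8.09, 8.56 and 8.68 in HPNWT livers and 4.91, 6.12 and 4.97 in EGFP livers. Atp6v0d2, a membrane subunit of the vacuolar proton pump, rose by 2.32 (SE 0.34), with 6.39, 6.94 and 5.61 in HPNWT livers and 3.97, 4.33 and 3.68 in EGFP livers. In all 4 genes the arrays of the groups lay apart, which the rule for naming the largest rises required. These 4 genes stand in the list of 20 measured female-biased liver genes, of which 6 rose and none fell (1.54% of all clusters rose). The other two were Cyp2b13 (1.72), a close relative of Cyp2b9 whose probes may read both, and the aldo-keto reductase Akr1b7 (0.64), named after its value was seen. The median over the 20 genes was 0.05 log2, against 0.01 over all 36230 symbols, and the other 14 did not pass. Without HPNWT replicate 3 the same count of 6 rose. The gene lists were chosen with earlier results of these data known, and this one holds 4 of the 10 largest rises. Its count is therefore no separate result.

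Other large rises did not share 1 function. Rgs16, which speeds the shut-off of G protein signals, had a log2 signal of 10.62, 10.43 and 10.34 in HPNWT livers and 8.99, 5.74 and 6.81 in EGFP livers. The HPNWT arrays were close together and the EGFP arrays spread over more than 3 log2 units. It was 9.74-fold higher (3.28, SE 0.63, limma adjusted p = 0.00886), and in the fit on the 6 arrays alone its adjusted p was 0.164. Sprr1a, a small proline-rich protein of the cornified envelope, rose by 3.35 (SE 0.34), with 5.49, 7.55 and 6.46 in HPNWT livers and 3.46, 3.0 and 2.99 in EGFP livers. The HPNWT arrays of Sprr1a spread over about 2 log2 units and, as the same rule required, lay above every EGFP array. Apoa4, an apolipoprotein of triglyceride-rich particles, was 4.43-fold higher (2.15, SE 0.25), at 10.22, 10.23 and 11.4 in HPNWT livers and 8.59, 8.36 and 8.44 in EGFP livers. Tff3, a secreted trefoil peptide of mucosal surfaces, rose by 2.23 (SE 0.36), with 7.45, 7.61 and 8.98 in HPNWT livers and 5.22, 6.66 and 5.47 in EGFP livers. Both were highest in HPNWT replicate 3. Ifi27l2b and Ifi44 complete the 10 largest rises and are given with the interferon genes.

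**Figure D2:**
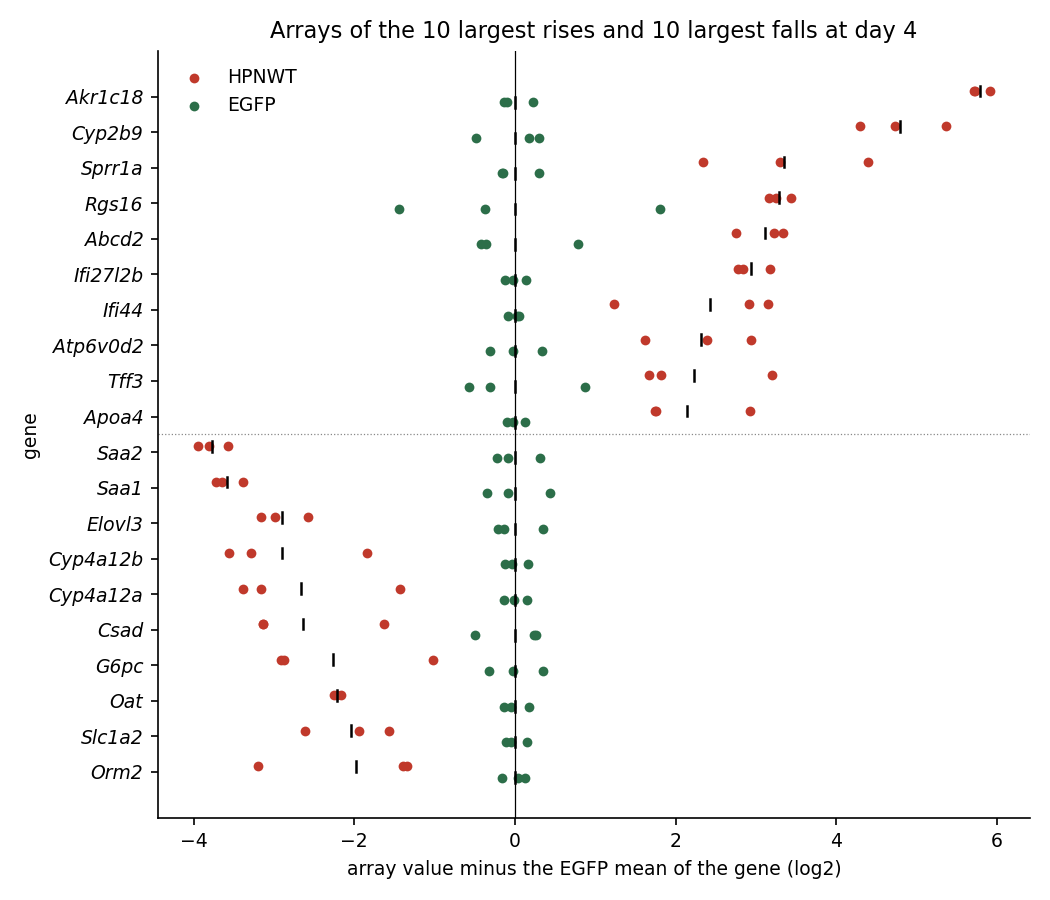
Each row is 1 gene, the 10 largest rises above and the 10 largest falls below the dotted line, among called genes that the naming rule admits. Points are single arrays at day 4, HPNWT (red) drawn above EGFP (green) in each row, as the array's log2 value minus the gene's EGFP mean, and black ticks are group means of 3 arrays. The groups do not overlap for any of the 20 genes, which the naming rule required, and HPNWT replicate 3 makes the outlying red point of Cyp4a12b, Cyp4a12a, Csad, G6pc, Orm2, Ifi44, Tff3 and Apoa4.

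Genes of mitosis were the group with the largest share of called members. Of 42 measured G2/M and mitosis genes 38 rose and none fell (1.54% of all clusters rose), and the median difference was 0.58 log2, against 0.01 over all symbols. Array by array the median over the list was 0.39, 0.42 and 0.88 above the EGFP mean in HPNWT livers, and −0.01, −0.01 and 0.03 in EGFP livers. All 3 HPNWT livers were thus higher, and HPNWT replicate 3 was highest. Without it 35 of 42 rose and the median was 0.41. In 41 of the 42 genes every HPNWT array lay above every EGFP array, which held for 9.91% of all clusters. These transcripts were dim, since 1 of the 42 (Spc24) had a group mean above the background level, and the fit on the 6 arrays of day 4 called 2.

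Ccnb2, the cyclin B2 that drives entry into mitosis with CDK1, had a log2 signal of 5.37, 5.52 and 6.47 in HPNWT livers and 3.82, 3.73 and 3.76 in EGFP livers. It rose by 2.02 (SE 0.19, limma adjusted p = 1.34e-05), and by 1.68 without HPNWT replicate 3. Mki67, the gene of the proliferation marker Ki-67, rose by 2.34 (SE 0.25), with 4.83, 4.92 and 6.31 in HPNWT livers and 3.0, 3.0 and 3.04 in EGFP livers. Ccna2, cyclin A2 of S and G2 phase, rose by 0.98 (SE 0.11), with 4.15, 4.09 and 4.63 in HPNWT livers and 3.31, 3.23 and 3.40 in EGFP livers. In these 3 genes the lowest HPNWT array lay above the highest EGFP array, and HPNWT replicate 3 was the highest array. The range of the list ran to smaller rises, such as Kif20a (1.42), a kinesin of cytokinesis, Plk1 (1.06), a mitotic kinase, Cdc20 (1.03), an activator of the anaphase-promoting complex, and Cdk1 (0.46). These 4 were chosen after their values were seen. Melk (0.26), Cdc25c (0.37), Birc5 (0.31) and Cdca8 (0.13) made up the 4 members that did not pass. Cdkn3, a phosphatase of cyclin-dependent kinases, rose by 1.32 (SE 0.09), with 3.73, 4.15 and 3.91 in HPNWT livers and 2.64, 2.56 and 2.63 in EGFP livers. Stmn1, a tubulin-binding protein of dividing cells, rose by 0.68 (SE 0.06).

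Promoters of mitosis genes are known to carry the cell cycle genes homology region (CHR, TTTGAA) and CCAAT boxes, which recruit the DREAM, MYB-MuvB and NF-Y complexes. The 2 promoters below, from RefSeq (GRCm38.p6), run from 250 bases before to 50 bases after the gene start and show these elements in the list's leading genes, with CHR and CCAAT matches on either strand in capitals.
Ccnb2 promoter (chr9:70421505-70421804, minus strand): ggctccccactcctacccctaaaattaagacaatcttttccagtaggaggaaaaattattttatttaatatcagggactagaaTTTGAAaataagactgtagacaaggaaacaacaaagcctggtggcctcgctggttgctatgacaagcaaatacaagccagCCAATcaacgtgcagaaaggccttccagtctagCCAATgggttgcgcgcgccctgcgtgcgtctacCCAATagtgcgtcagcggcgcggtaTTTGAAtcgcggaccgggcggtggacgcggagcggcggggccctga
Mki67 promoter (chr7:135716330-135716629, minus strand): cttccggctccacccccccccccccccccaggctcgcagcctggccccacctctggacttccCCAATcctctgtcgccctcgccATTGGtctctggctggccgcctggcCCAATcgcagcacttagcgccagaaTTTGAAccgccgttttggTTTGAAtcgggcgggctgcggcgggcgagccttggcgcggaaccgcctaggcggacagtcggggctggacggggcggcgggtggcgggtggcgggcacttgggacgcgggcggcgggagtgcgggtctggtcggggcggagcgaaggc
RefSeq gave a promoter for 35 of the 42 mitosis genes. TTTGAA stood on either strand in 26 of these 35 (74.3%), against 20.2% of 27025 genes, and CCAAT in 26 (74.3%), against 41.1%. Among the 32 called genes with a promoter the shares were 78.1% each. CCAAT was also frequent in the 33 promoters of S phase genes (63.6%, and 81.8% of the 11 called ones). TTTGAA stood in 12.1% and 18.2% of these. These are counts of letters in a window of 300 bases and not of bound factors.

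DNA replication genes rose in smaller number. Among 39 genes of S phase 14 passed as higher and 0 as lower (1.54% of all clusters rose), with a median of 0.23 log2. The array medians were 0.18, 0.23 and 0.35 in HPNWT livers and −0.03, 0.002 and 0.04 in EGFP livers. The replicative helicase subunit Mcm6 had a log2 signal of 5.54, 5.70 and 5.91 in HPNWT livers and 4.21, 4.24 and 4.11 in EGFP livers, a rise of 1.53 (SE 0.13, limma adjusted p = 6.69e-06). Its partners Mcm4 and Mcm2 rose by 1.03 (SE 0.13) and 0.95 (SE 0.13). Mcm5 (1.09), Mcm3 (0.85) and the ribonucleotide reductase subunit Rrm2 (0.86) also rose, chosen after their values were seen. All but 2 of the 39 lay under the background level. The count was 9 without HPNWT replicate 3, 8 without EGFP replicate 1, 7 without EGFP replicate 2 and 3 in the fit on the 6 arrays.

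Mcm6 is shown because its promoter carries 2 copies of the E2F site TTTGGCGC, in capitals, the element through which E2F factors drive S phase genes.
Mcm6 promoter (chr1:128359656-128359955, minus strand): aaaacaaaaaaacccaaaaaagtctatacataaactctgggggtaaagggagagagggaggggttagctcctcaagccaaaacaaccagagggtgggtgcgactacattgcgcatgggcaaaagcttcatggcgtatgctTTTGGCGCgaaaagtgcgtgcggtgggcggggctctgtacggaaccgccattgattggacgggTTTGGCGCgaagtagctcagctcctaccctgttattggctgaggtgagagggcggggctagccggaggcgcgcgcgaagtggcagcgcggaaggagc
This motif stood on either strand in 7 of 33 S phase promoters (21.2%), in 4 of the 11 called genes with a promoter (36.4%) and in 0.585% of all genes. None of the 35 mitosis promoters held it.

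Fewer genes of earlier steps of the cycle were called, read against the 1.54% of all clusters that rose. In the list of 21 G1 cyclins and inhibitors Ccne2 (0.51), Rbl1 (0.69), Ccne1 (0.67) and E2f1 (0.31) rose and none fell (median 0.21), all under the background level and named after their values were seen. E2f1 did not pass with any array of day 4 other than EGFP replicate 3 left out, and its adjusted p without HPNWT replicate 3 was 0.063. The count of 4 was 2 without HPNWT replicate 2 or EGFP replicate 2, and 1 without EGFP replicate 1 and in the fit on the 6 arrays. The cyclin D1 cluster also carries the symbol of a microRNA, Mir3962, and so lies outside that count. Its log2 signal was 7.56, 7.67 and 7.81 in HPNWT livers and 5.69, 6.25 and 6.11 in EGFP livers, a difference of 1.67 (SE 0.20, limma adjusted p = 1.55e-04) with the EGFP mean under the background level. It was read after its value was seen. Of 17 p53 target genes 1 rose, the spindle gene Psrc1 (1.12).

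Interferon-stimulated genes rose as well. Of 36 measured genes 25 rose and none fell (1.54% of all clusters rose), with a median of 0.64 log2. Of the 36, 17 had a group mean above the background level. The array medians were 0.64, 0.70 and 0.50 in HPNWT livers and 0.15, −0.09 and −0.07 in EGFP livers, so that HPNWT replicate 3 was the lowest of its group here. Without it 25 rose and the median was 0.67. The fit on the 6 arrays of day 4 called 7. Ifi27l2b, a mitochondrial protein induced by interferon, was 7.65-fold higher (2.93, SE 0.24, limma adjusted p = 4.18e-06), at 10.19, 10.25 and 10.59 in HPNWT livers and 7.39, 7.55 and 7.28 in EGFP livers. Irf7, the transcription factor that amplifies interferon production, was 2.36-fold higher (1.24, SE 0.17), with 8.26, 8.30 and 7.56 in HPNWT livers and 7.08, 6.57 and 6.76 in EGFP livers.

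Sensors and effectors of RNA viruses were among the members called. Ddx58, which encodes the RNA sensor RIG-I, had a log2 signal of 6.63, 6.71 and 6.64 in HPNWT livers and 6.04, 5.93 and 6.06 in EGFP livers (0.65, SE 0.08). Oas1a, an oligoadenylate synthetase, had 6.0, 6.01 and 5.63 in HPNWT livers and 5.23, 4.66 and 4.91 in EGFP livers (0.95, SE 0.12). Both groups were tight for Ddx58, and no array overlapped for either gene. Ifi44 showed HPNWT replicate 3 apart, at 6.01 against 7.70 and 7.93 in the other HPNWT livers and 4.82, 4.84 and 4.70 in EGFP livers (2.43, SE 0.32), and its difference without that array was 3.03. Usp18 (1.60), which restrains interferon receptor signalling, and the RNA sensor Ifih1 (0.75, 1.69-fold) rose too, chosen after their values were seen. Some classical members did not pass, and Mx1 (0.08), Mx2 (0.14), Oas2 (0.18), Stat2 (0.19) and Irf9 (0.23) were among these 11. In the list of MHC class I presentation 3 of 11 measured genes rose and none fell (median 0.30), against 1.54% of all clusters that rose. These were the immunoproteasome subunit Psmb8 (0.55) and the class I genes H2-T23 (0.60) and H2-Q4 (0.31), named after their values were seen. The class I genes are near copies of one another, and their probes may share signal. The limma fit on the 6 arrays called none of the 11 (7 rises at an unadjusted p under 0.05).

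The interferon-stimulated response element (searched on both strands as GAAA, 2 bases of any kind and GAAA) is shown in capitals in the promoters of Oas1a, where 2 matches overlap, and Ddx58, where it lies on the other strand.
Oas1a promoter (chr5:120907476-120907775, minus strand): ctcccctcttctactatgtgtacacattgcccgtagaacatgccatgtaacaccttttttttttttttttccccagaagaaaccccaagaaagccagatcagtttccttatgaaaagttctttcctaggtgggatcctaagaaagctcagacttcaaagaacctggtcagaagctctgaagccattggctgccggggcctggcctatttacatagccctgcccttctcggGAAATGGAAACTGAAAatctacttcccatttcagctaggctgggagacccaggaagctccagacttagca
Ddx58 promoter (chr4:40239776-40240075, minus strand): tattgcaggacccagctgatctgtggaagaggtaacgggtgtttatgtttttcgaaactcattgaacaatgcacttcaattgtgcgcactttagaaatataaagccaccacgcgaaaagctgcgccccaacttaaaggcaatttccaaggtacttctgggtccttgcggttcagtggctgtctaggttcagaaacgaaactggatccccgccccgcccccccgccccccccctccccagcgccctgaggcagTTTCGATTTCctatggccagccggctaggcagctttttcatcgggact
It stood in 16 of 23 interferon-stimulated genes with a promoter (69.6%), in 11 of 17 called ones (64.7%) and in 3.99% of all genes. Among the 35 mitosis promoters its share was 8.57%.

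**Figure D3:**
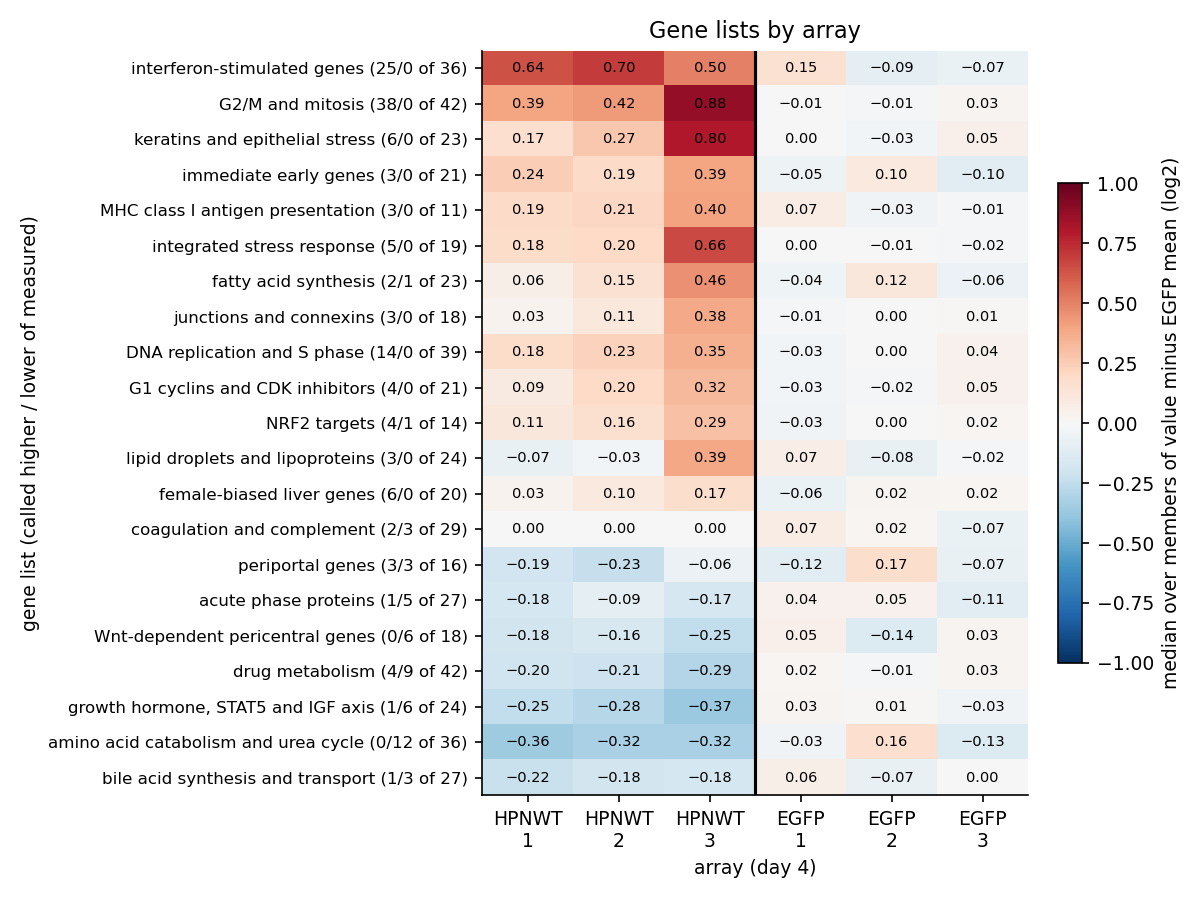
Rows are the gene lists with at least 3 called members, with the number called higher, lower and measured, and columns are the arrays of day 4, HPNWT left and EGFP right. Each cell is the median over the members of the array's log2 value minus the gene's EGFP mean. The G2/M row holds 0.39, 0.42 and 0.88 in HPNWT livers, and the interferon row 0.64, 0.70 and 0.50.

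The largest falls among the named genes were those of acute phase proteins, which liver secretes during inflammation. Saa2 had a log2 signal of 6.3, 6.15 and 6.53 in HPNWT livers and 10.42, 10.02 and 9.87 in EGFP livers, a 13.7-fold fall (−3.77, SE 0.44, limma adjusted p = 1.47e-04). Saa1 had 7.01, 7.08 and 7.34 in HPNWT livers and 11.16, 10.65 and 10.38 in EGFP livers, and was 12-fold lower (−3.58, SE 0.39). In neither gene did the groups overlap, which the rule for naming the largest falls required. Saa1 and Saa2 are near-identical serum amyloid A genes, so their probes may read both transcripts. Orm2, an orosomucoid, was 3.93-fold lower (−1.98, SE 0.41), with 8.65, 8.60 and 6.79 in HPNWT livers and 10.03, 10.11 and 9.82 in EGFP livers. Its fall was 1.37 without HPNWT replicate 3, and its adjusted p was 0.0598 without EGFP replicate 1 and 0.0608 without EGFP replicate 2. Orm1 (−0.46) and Lbp (−1.35), the lipopolysaccharide-binding protein, also fell, and Il1rn (1.41), the interleukin-1 receptor antagonist, rose, all named after their values were seen. In the list of 27 acute phase genes 5 fell and 1 rose (median −0.18), against 0.67% of all clusters that fell and 1.54% that rose. Most members, such as fibrinogen chain Fgb (−0.08), did not pass. The list had 3 falls and 2 rises without EGFP replicate 2, and 2 falls and 1 rise in the fit on the 6 arrays. Without HPNWT replicate 2 it had 5 falls and without EGFP replicate 1 4 falls, with no rise in limma either way (2 and 4 rises at an unadjusted p under 0.05), and without HPNWT replicate 3 5 falls and 2 rises.

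A few fatty acid enzymes known to be higher in male mouse liver fell. Cyp4a12b and Cyp4a12a, fatty acid omega-hydroxylases of male mouse liver, were 7.46-fold (−2.90, SE 0.34) and 6.33-fold lower (−2.66, SE 0.37). Cyp4a12b had a log2 signal of 7.74, 8.02 and 9.46 in HPNWT livers and 11.18, 11.47 and 11.27 in EGFP livers. The near-identical Cyp4a12a, whose probes may read both, had 7.85, 8.07 and 9.81 in HPNWT livers and 11.11, 11.38 and 11.23 in EGFP livers. In both, HPNWT replicate 3 lay between the groups. Elovl3, an elongase of long-chain fatty acids, was 7.49-fold lower (−2.90, SE 0.41), at 7.89, 7.48 and 7.30 in HPNWT livers and 10.32, 10.8 and 10.25 in EGFP livers. The list of growth hormone, STAT5 and IGF genes holds these 3. Of its 24 members 6 fell and 1 rose (median −0.27), against 0.67% of all clusters that fell and 1.54% that rose. Cyp7b1 (−1.66), an oxysterol hydroxylase, Nudt7 (−1.02), a peroxisomal CoA hydrolase, and Ghr (−0.45), the growth hormone receptor, were the other falls and Igfbp2 (0.56) the rise, named after their values were seen. Other genes known as male-biased did not pass, with Hsd3b5 at −1.0, Slco1a1 at −0.67, Cyp2d9 at −0.23 and Mup20 at −0.0048. Igf1 (−0.48), Stat5a (−0.08) and Stat5b (−0.30) did not pass. Igfbp2 did not pass with any single array of day 4 left out (limma adjusted p from 0.0600 without HPNWT replicate 3 to 0.120 without EGFP replicate 3). Without EGFP replicate 1 the list had 4 falls and no rise, and 3 fell in the fit on the 6 arrays.

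Part of the enzymes that use amino acids fell. Of 36 measured genes 12 fell and none rose (0.67% of all clusters fell), with a median of −0.28 log2 and array medians of −0.36, −0.32 and −0.32 in HPNWT livers and −0.03, 0.16 and −0.13 in EGFP livers. Oat, which turns ornithine into glutamate semialdehyde, was 4.62-fold lower (−2.21, SE 0.17, limma adjusted p = 3.54e-06), with 7.79, 7.83 and 7.87 in HPNWT livers and 9.99, 10.22 and 9.9 in EGFP livers. The HPNWT arrays of Oat agree within 0.1 log2 units. Csad, an enzyme of taurine synthesis, was 6.21-fold lower (−2.63, SE 0.33), at 6.1, 6.1 and 7.6 in HPNWT livers and 8.74, 9.5 and 9.48 in EGFP livers. Prodh, which oxidises proline, was 2.84-fold lower (−1.50, SE 0.20), with 7.14, 7.08 and 7.04 in HPNWT livers and 9.15, 8.18 and 8.46 in EGFP livers. In Csad HPNWT replicate 3 lay nearest to the EGFP livers, and in Prodh the HPNWT arrays lay within 0.1 log2 units. Smaller falls were those of Hpd (−0.51) and Haao (−0.46), enzymes of tyrosine and tryptophan breakdown, and of Mat1a (−0.45), the methionine adenosyltransferase of liver. They were picked after their values were seen. Mat1a did not pass with any single array of day 4 left out (limma adjusted p from 0.0527 without EGFP replicate 3 to 0.180 without EGFP replicate 2). The urea cycle enzymes Cps1 (−0.22), Otc (−0.07), Asl (−0.38) and Arg1 (0.04) did not pass. The list had 8 falls without HPNWT replicate 3, 7 without HPNWT replicate 2 or EGFP replicate 2 and 1 in the fit on the 6 arrays.

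Genes of both ends of the liver lobule were among the changes. In the list of 18 pericentral genes that depend on Wnt signals 6 fell and none rose (0.67% of all clusters fell), with a median of −0.21. Beside Oat these were Slc1a2 (−2.04, SE 0.19), a glutamate transporter with 5.89, 5.53 and 4.85 in HPNWT livers and 7.62, 7.36 and 7.42 in EGFP livers, and Cyp27a1 (−0.87, 1.83-fold), the sterol 27-hydroxylase of bile acid synthesis. Cyp2e1 (−0.58), Cyp1a2 (−0.56) and Rgn (−0.53) were the remaining ones, named after their values were seen. Rgn did not pass without HPNWT replicate 3, EGFP replicate 1 or EGFP replicate 3 (limma adjusted p = 0.12, 0.151 and 0.194). Cyp1a2 did not pass without HPNWT replicate 1, HPNWT replicate 2, EGFP replicate 1 or EGFP replicate 3 (adjusted p = 0.0627, 0.108, 0.121 and 0.0759). The other members of this list did not pass, and the highest stood at 0.51. At an unadjusted limma p under 0.05, 7 of the 18 were lower and 2 higher. In the fit on the 6 arrays 2 of the 18 fell. Of 16 periportal genes 3 rose and 3 fell (1.54% of all clusters rose). The falls were Etnppl, which degrades phosphoethanolamine (−1.89, SE 0.33, 3.71-fold), Ddc, the aromatic amino acid decarboxylase (−1.55, SE 0.33, 2.93-fold), and G6pc, the catalytic subunit of glucose-6-phosphatase (−2.27, SE 0.57, 4.81-fold). Cdh1, the E-cadherin of hepatocyte junctions, was among the rises (0.89, SE 0.19, 1.86-fold), with Hsd17b13 (0.50) and Aldh1b1 (0.71), named after their values were seen. The total of 6 was 4 without HPNWT replicate 3, without either other HPNWT array and without EGFP replicate 2, 2 without EGFP replicate 1, 1 without EGFP replicate 3 and 0 in the limma fit on the 6 arrays.

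The calls of G6pc, Ddc and Cdh1 were fragile too. G6pc had 8.14, 8.12 and 10.01 in HPNWT livers and 10.7, 11 and 11.37 in EGFP livers, with an adjusted p of 0.0496. It passed without HPNWT replicate 3 (fall of 2.89, adjusted p = 0.00878), and its adjusted p was 0.140, 0.183, 0.101, 0.133 and 0.169 without each of the other 5 arrays of day 4. Ddc had an adjusted p of 0.0163, and of 0.0641 without HPNWT replicate 1, 0.0694 without HPNWT replicate 2, 0.0648 without EGFP replicate 2 and 0.0849 without EGFP replicate 3. Cdh1 (adjusted p = 0.0182) did not pass without HPNWT replicate 3 (0.0592), EGFP replicate 1 (0.0798) or EGFP replicate 3 (0.0787).

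Drug-metabolising enzymes moved in both directions. Of 42 measured genes 9 fell and 4 rose (0.67% of all clusters fell and 1.54% rose), with a median of −0.23. The rises were Cyp2b9, Cyp2b13, the sulfotransferase Sult1a1 (0.99) and Cyp2b10 (1.17), the last 2 named after their values were seen. Cyp2b10 passed without EGFP replicate 2 and failed without each of the other arrays of day 4 (limma adjusted p from 0.071 to 0.196). Cyp2b13 had a log2 signal of 5.75, 6.4 and 5.54 in HPNWT livers and 4.14, 4.19 and 4.19 in EGFP livers. Among the falls Cyp2j5, an epoxygenase of arachidonic acid, was small and even, with 10.34, 10.36 and 10.29 in HPNWT livers and 10.72, 10.77 and 10.79 in EGFP livers (−0.43, SE 0.07, 1.35-fold). The total of 13 was 7 without EGFP replicate 1 or EGFP replicate 3, 8 without HPNWT replicate 2 and 2 in the fit on the 6 arrays. Of 27 genes of bile acid synthesis and transport 3 fell, Cyp27a1, Cyp7b1 and the uptake carrier Slco1b2 (−0.88), and 1 rose, the transporter Slc10a2 (1.64). Without EGFP replicate 1 the bile acid list had 1 fall and no rise in limma, and Slc10a2 had an adjusted p of 0.0518. The limma fit on the 6 arrays called none of the 27 (11 falls and 2 rises at an unadjusted p under 0.05).

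Stress genes rose in part, read against the 1.54% of all clusters that rose and the 0.67% that fell. Srxn1, which encodes sulfiredoxin and is a target of the antioxidant factor NRF2, was 2.34-fold higher (1.23, SE 0.14, limma adjusted p = 1.00e-04), at 8.77, 8.95 and 9.48 in HPNWT livers and 7.75, 7.85 and 7.90 in EGFP livers. The cystine transporter Slc7a11 (0.44, SE 0.07) and the pentose phosphate enzyme G6pdx (0.69, SE 0.15, 1.61-fold) rose also. Slc7a11 lay under the background level, at 2.90, 3.09 and 2.88 in HPNWT livers and 2.59, 2.41 and 2.55 in EGFP livers. The negative-control medians of these arrays ran from 2.89 to 3.25. In the limma fit on the 6 arrays its adjusted p was 0.147. Of 14 NRF2 targets 4 rose, with Pgd (0.66), and 1 fell, Gclm (−0.33), the last 2 named after their values were seen. The rises were 2 without HPNWT replicate 3 or EGFP replicate 1. The adjusted p of G6pdx was 0.0638 without HPNWT replicate 3, 0.0904 without HPNWT replicate 2 and 0.117 without EGFP replicate 1. Gclm passed without HPNWT replicate 3 and failed without each of the other arrays of day 4 (limma adjusted p from 0.0991 to 0.154). Nupr1, a stress-induced chromatin protein, rose by 2.06 (SE 0.13, limma adjusted p = 4.21e-07), with 5.95, 6.08 and 6.3 in HPNWT livers and 4.05, 4.07 and 4.03 in EGFP livers. Nupr1 was 1 of 5 rises among 19 genes of the integrated stress response, with Ddit3 (1.90, 3.73-fold), Trib3 (1.07), Psat1 (0.69) and Aldh1l2 (0.43), named after their values were seen. Aldh1l2 passed without HPNWT replicate 3 and failed without each of the other arrays of day 4 (limma adjusted p from 0.0527 to 0.140). The fit on the 6 arrays called 2 of the 19. Of 26 chaperone genes of the unfolded protein response 1 rose, Pdia6 (0.63), and 5 rose without HPNWT replicate 3. In the list of keratins and epithelial stress genes 6 of 23 rose (median 0.44), Sprr1a, Anxa2 (1.29), Tnfrsf12a (1.38), Anxa5 (0.89), Lgals1 (0.68) and S100a11 (0.96), the last 5 named after their values were seen. Its array medians were 0.17, 0.27 and 0.80 in HPNWT livers and 0.00, −0.03 and 0.05 in EGFP livers, and the list's median was 0.23, with 4 rises, without HPNWT replicate 3, the array with the highest endothelial, stellate and cholangiocyte sums. The part of those cells in the result was not tested. The fit on the 6 arrays called 1 of the 23.

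Genes of the EGF receptor pathway, which the series title names, were read against the 2.21% of all clusters called. Of 16 receptors, ligands and adaptors 1 passed, the ligand betacellulin (Btc), with a log2 signal of 5.64, 5.67 and 5.9 in HPNWT livers and 4.94, 4.93 and 5.4 in EGFP livers (0.65, SE 0.11, limma adjusted p = 0.00471). The receptor Egfr itself had 10.84, 10.44 and 10.22 in HPNWT livers and 11.41, 11.09 and 10.41 in EGFP livers, so the groups overlapped (−0.47, SE 0.23, adjusted p = 0.446). The ligands Tgfa (0.21), Areg (0.36) and Hbegf (0.04) did not pass. Of 13 feedback genes of the ERK kinases 1 rose, the phosphatase Dusp5 (0.94, SE 0.19), with 6.28, 6.16 and 6.53 in HPNWT livers and 5.4, 5.36 and 5.39 in EGFP livers. Among 21 immediate early genes Atf3 (1.17), Egr1 (1.29, 2.45-fold) and Ier2 (0.64, 1.56-fold) rose, and Ier2 did not pass without HPNWT replicate 1 (adjusted p = 0.0505), HPNWT replicate 3 (0.057) or EGFP replicate 3 (0.0876). The immediate early list had 5 rises without EGFP replicate 2, and none in the limma fit on the 6 arrays (8 at an unadjusted p under 0.05). Hgfac, the protease that activates hepatocyte growth factor, was 2.27-fold higher (1.18, SE 0.10, limma adjusted p = 9.69e-06), at 10.4, 10.4 and 10.6 in HPNWT livers and 9.44, 9.29 and 9.13 in EGFP livers. It was the 1 called gene among 8 of the hepatocyte growth factor axis and among 12 membrane serine proteases and inhibitors. The genes of this paragraph were picked after their values were seen.

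**Figure D4:**
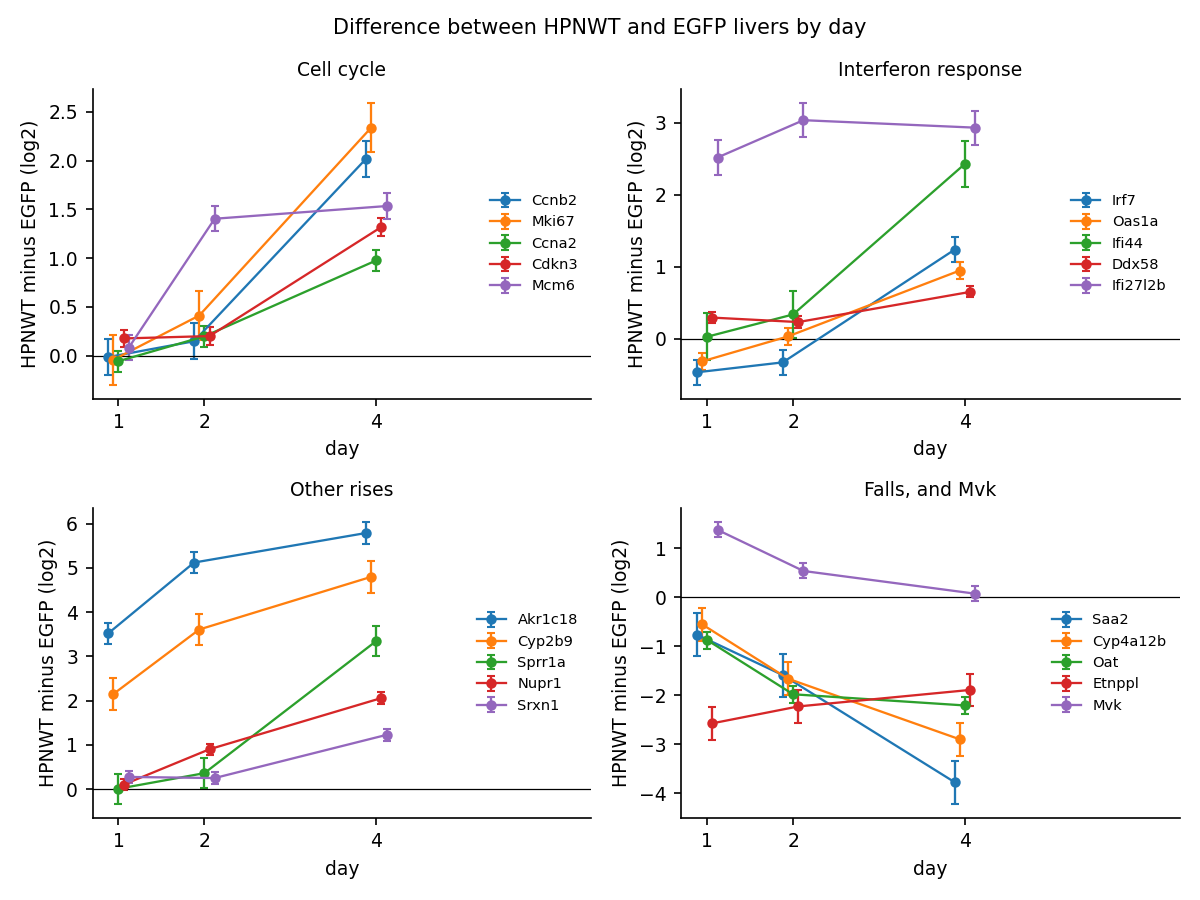
Points are HPNWT minus EGFP (log2) at day 1, day 2 and day 4 for the genes in each legend, and bars are 1 SE of the fit, from 3 arrays per group and day. The panels hold genes of the cell cycle, genes induced by interferon, other rises, and 4 falls with Mvk. Mcm6 stands at 0.08, 1.40 and 1.53, and Ccnb2 at −0.01, 0.15 and 2.02.

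The day 4 differences were set against those of day 1 and day 2, which share no arrays with them. At day 1 4.59% and at day 2 5.67% of all clusters were called. Mcm6 differed by 0.08 at day 1, 1.40 at day 2 and 1.53 at day 4, and its day 4 difference exceeded that of day 1 by 1.45 (SE 0.18, limma adjusted p = 0.00504). Ccnb2 differed by −0.01, 0.15 and 2.02, and its day 4 value exceeded day 1 by 2.03 (adjusted p = 0.00504) and day 2 by 1.87 (SE 0.26, adjusted p = 0.0449). Cdkn3 likewise exceeded day 1 by 1.14 (adjusted p = 0.00184) and day 2 by 1.12 (SE 0.13, adjusted p = 0.00739). Of the 42 mitosis genes none was called at day 1 and 2 at day 2, with list medians of −0.01, 0.15 and 0.58 over the days, and the difference from day 1 itself passed for 4 (Ccnb2, Mki67, Ccna2 and Kif20a). Of the 39 S phase genes that difference passed for Mcm6 alone. Among these 39, 1 was called higher and 1 lower at day 1, 15 higher at day 2 and 14 higher at day 4. Their list medians were 0.07, 0.25 and 0.23 over the days.

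Interferon genes also differed between days. Irf7 differed by −0.47 at day 1, −0.33 at day 2 and 1.24 at day 4 (day 4 minus day 1 1.71, SE 0.24, adjusted p = 0.00935), and Oas1a by −0.31, 0.03 and 0.95 (1.26, SE 0.17, adjusted p = 0.00597). With Oasl2, Gbp3 and Oas1g, 5 of the 36 interferon-stimulated genes passed against day 1 and none against day 2, and the list medians were −0.03, 0.03 and 0.64. Ifi27l2b, by contrast, stood at 2.52, 3.04 and 2.93, and neither difference between days passed for it. The stress genes Nupr1 (0.10, 0.90 and 2.06) and Sprr1a (0.01, 0.36 and 3.35) exceeded day 1 by 1.96 (adjusted p = 3.11e-04) and 3.34 (adjusted p = 0.0104).

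Fewer genes were lower at day 4 than at day 1 in the HPNWT minus EGFP difference. Mvk, the mevalonate kinase of cholesterol synthesis, stood at 1.38 at day 1, 0.54 at day 2 and 0.07 at day 4 (day 4 minus day 1 −1.30, SE 0.22, adjusted p = 0.0290). Ssr1, a subunit of the translocon-associated complex, stood at 0.86, 0.51 and 0.13 (−0.73, adjusted p = 0.0219), and the spliceosome gene Snrpd3 at 0.33, 0.08 and −0.18 (−0.51, adjusted p = 0.0322). None of these 3 was called at day 4. In the list of 24 cholesterol genes 19 were called higher at day 1 and 2 at day 4, with medians of 1.00, 0.51 and 0.02 over the days, and the difference from day 1 passed for Mvk and Dhcr7. Fam25c (−1.11 at day 4), Slc13a3 (−0.09), a dicarboxylate transporter, and Lrrc30 (−0.37) had the smallest p among genes lower than at day 2, and none passed that test.

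Across all clusters the difference between day 4 and day 1 passed for 38 (0.0946% of those tested), 30 higher and 8 lower at day 4, and 2298 had an unadjusted p under 0.05. Against day 2 it passed for 2 (0.00498%), Ccnb2 and Cdkn3, with 2390 unadjusted. Without HPNWT replicate 3 these counts were 137 and 25. Of the 889 clusters called at day 4, 350 were also called at day 1 with the same sign and 1 with the opposite sign. At day 2 the shared calls were 541 with the same sign and none with the opposite. All 3 days shared 323, and 320 were called at day 4 alone, which by itself is no test of a difference between days.

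**Figure D5:**
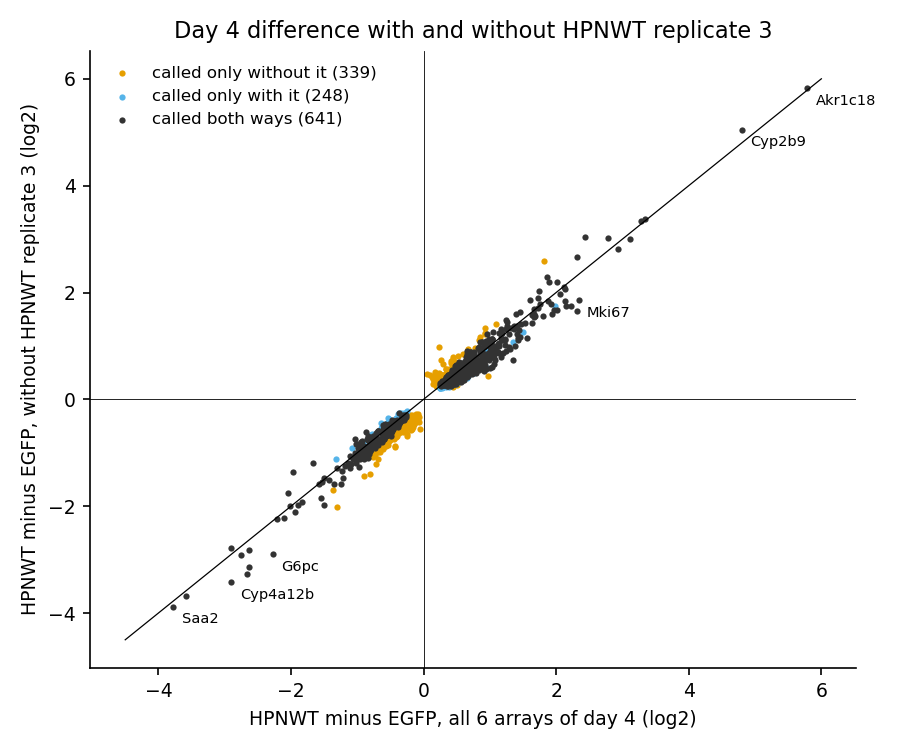
Each point is a cluster called at day 4 with all arrays or without HPNWT replicate 3, with HPNWT minus EGFP from all 6 arrays of that day on the horizontal axis and without HPNWT replicate 3 on the vertical axis (both log2). Black points (641) were called both ways, blue (248) with all arrays only and orange (339) without that array only, and the line marks equal values.

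Leaving out HPNWT replicate 3 changed the balance of directions more than the number of calls. Then 980 clusters were called (2.44%), 542 higher and 438 lower, of which 641 were also called with all arrays, and all 889 kept their sign. Leaving out EGFP replicate 1 gave 528 calls and leaving out EGFP replicate 2 gave 591. The authors' deposited list for day 4 held 522 rows, 293 higher and 229 lower in HPNWT livers. Of its symbols 340 were called here, which is 65.8% of the authors' deposited list and 38.4% of the 885 symbols called here.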

How the data were processed

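Values of 6 livers were read from the deposited table of all 18 arrays. Its log2 values were computed by the authors by robust multi-array averaging, and the Transcriptome Analysis Console is the software named, per the labels. Its version is not given in the sources used here. Gene symbols, a signed linear fold change (used as a score), a p-value and an FDR came from the authors' deposited comparison tables, per the file headers. The averages in those tables run on a wider scale than the value table and are not set beside it.

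The 40161 clusters with a symbol (3590 carry several and are not named, except the Ccnd1 cluster) entered a limma 3.58.1 model (R 4.3.3) of 6 group means over 18 arrays, without further scaling or filter. Contrasts were HPNWT minus EGFP at day 4, and this difference minus that of day 1 and of day 2. Tests were 2-sided, p-values were adjusted by Benjamini-Hochberg across the clusters with a symbol, and under 0.05 a cluster was called. The fit was tested on simulated data with the same normal spread in every group. That test does not cover a group with a wider spread or an array that stands apart. The number of arrays limits the precision, and p-values measure the spread between animals within groups.

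The members and the 45 gene lists were chosen with earlier results of these data known. Of 827 list genes 797 were matched by symbol on a cluster of their own, 30 stood only on clusters with several symbols, and each symbol was represented by its brightest cluster. Named by rule were Hpn, the 10 largest rises and falls among calls without overlap and above the background level, 3 members with the smallest p of 8 lists with the largest called share, and, for each interaction and direction, the 3 genes lowest in p. Predicted genes, pseudogenes, small RNAs and clusters with several symbols were counted and not named (83 of the 620 rises and 110 of the 267 falls without overlap). Motifs were searched on both strands of RefSeq promoters (GRCm38.p6). Alternatives were the 6 arrays alone, quantile normalization, median centring, array weights, a variance trend, a filter on dim clusters, a replicate block, the negative-control median as a covariate, and each array left out. Same-numbered arrays did not deviate together (correlations 0.0569, −0.177 and −0.25). Some genes are not reported here.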

Additional observations from a re-analysis of the deposited data

Results flagged for a closer look

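The difference between HPNWT and EGFP livers changed between days for 15 of the named genes, by the limma interaction test. Day 4 exceeded day 1 by 3.34 log2 for Sprr1a, 2.38 for Mki67, 2.27 for Akr1c18, 2.03 for Ccnb2, 1.96 for Nupr1, 1.71 for Irf7, 1.45 for Mcm6, 1.33 for Cyp2b13, 1.26 for Oas1a, 1.14 for Cdkn3, 1.03 for Ccna2 and 0.81 for Stmn1. Day 4 lay under day 1 for Mvk (−1.30), Ssr1 (−0.73) and Snrpd3 (−0.51). Day 4 exceeded day 2 by 1.87 for Ccnb2 and 1.12 for Cdkn3. Several of these genes were named because of the same test, so their number is no separate result.

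Clusters without a symbol lie outside the comparison above. Of 25795 such clusters 8 were higher and 26 lower in HPNWT livers at day 4 (0.132%, with 2407 at an unadjusted p under 0.05), and 11 of these 34 had a group mean above the background level. The differences ran from −2.12 to 1.71 log2.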

How the results depend on the processing

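The count of 889 calls at day 4, and those of 38 and 2 for the differences from day 1 and day 2, changed with the processing. On the arrays of the days compared alone they were 149, 9 and 0 (2430 at an unadjusted p under 0.05 for the last). Median centring gave 592, 16 and 2, repeated quantile normalization 958, 46 and 5, and the negative-control covariate 727, 55 and 1. Array weights gave 2363 (1290 higher, 1073 lower), 939 (335 and 604) and 47, and the higher share of day 4 calls was 54.6%, against 69.7% as reported. With dim clusters left out (9475 kept) the counts were 686 (59.3% higher), 29 and 0 (733 unadjusted). The replicate block gave 581, 15 and 0 (2090 unadjusted). The labels do not say that a number pairs 2 mice, and same-numbered arrays did not deviate together. With 1 array left out the counts ran from 528 to 987, 17 to 137 and 1 to 25. The authors' deposited table held 917 clusters (624 higher, 293 lower) at an FDR under 0.05 and 688 (327 and 361) at p under 0.05 and a fold over 2. The difference of Hpn turned to −0.062 with array weights and lay between −0.0554 (without HPNWT replicate 3) and 0.203 with 1 array of day 4 left out. That of Mvk turned to −0.0038 with array weights, and that of Slc13a3 lay between −0.22 and 0.0477 (without EGFP replicate 1). In the fit on 6 arrays, which estimates the spread from those arrays alone, 21 named genes lost their call with the same difference. With an array left out G6pc, Ddc, G6pdx, Cdh1, Orm2 and Lrrc30 lost theirs at least once. Causes were not tested. No alternative moved the median of all clusters by over 0.1 log2. The list of mitosis genes counted between 1 and 41 rises and that of interferon-stimulated genes between 7 and 27 over the alternatives, with no fall in any. The count of 1 mitosis gene came with dim clusters left out, where only 1 of the 42 was kept. The limma fit on the 6 arrays called 2 of the 42 (40 at an unadjusted p under 0.05).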

Other observations

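Precursor microRNA clusters were called almost only in the lower direction. Of 1714 tested 53 were lower (3.09%, against 0.67% of all clusters) and 2 higher in HPNWT livers, by 0.32 to 0.90 on the log2 scale for the falls. They are not 53 separate measurements, since the 53 hold 29 distinct sets of array values and 16 of them share 1 set. Of the 53, 47 carry predicted gene symbols and 35 had a group mean above the background level. The median over the class was −0.10, and the median of the negative-control probe sets differed by −0.12 between HPNWT and EGFP livers. Its part in the result was not tested.

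Single rises and falls outside the lists' main pattern were read after their values were seen. Id1, a target of bone morphogenetic protein signals, had a log2 signal of 8.09, 7.94 and 7.44 in HPNWT livers and 5.92, 5.66 and 5.85 in EGFP livers (2.01, SE 0.30). Afp, the fetal serum protein, rose by 1.18 (SE 0.16) under the background level, with 4.72, 4.60 and 4.50 in HPNWT livers and 3.42, 3.46 and 3.42 in EGFP livers. Slc10a2, a sodium-dependent bile acid transporter, was 3.11-fold higher (1.64, SE 0.32). The lectin Mbl1 was 2.15-fold lower (−1.10, SE 0.14), and the coagulation factor gene F11 was 1.98-fold higher (0.99, SE 0.15). Lpl, the lipoprotein lipase, rose by 1.14 (SE 0.23). Without EGFP replicate 1 the adjusted p was 0.0518 for Slc10a2 and 0.0588 for Lpl, and without EGFP replicate 3 it was 0.0678 for Lpl. In the fit on the 6 arrays Slc10a2, F11 and Lpl did not pass (adjusted p = 0.208, 0.0532 and 0.131).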
